A study of Rattus norvegicus with 6 samples.

Results

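Collagen and laminin chains of cultured rat Leydig cells were compared between cells that had met exosomes of Sertoli cells and cells that had not. Members were all array probes, other than controls, whose RefSeq accession maps to a rat gene symbol of the form Col, number, a, number (collagen chains) or Lam, a, b or c, number (laminin chains). This gave 25 genes with 35 probes, out of 15168 named genes and 30367 probes on the array. They were sorted by the structures the chains build into 7 fibrillar chains, 11 basement membrane chains (4 collagens and 7 laminins) and 7 other collagen chains. The cells were primary Leydig cells, the testosterone-producing cells between the seminiferous tubules, from Sprague-Dawley rats, and all were kept in F12/DMEM with 10% fetal bovine serum at 34 °C and 5% CO2. The exosome group had 3 samples whose medium received exosomes at 5 µg/ml for 24 h. Exosomes are small vesicles that cells shed, and these came from primary rat Sertoli cells, the nurse cells of the tubule. The untreated group had 3 samples that received none. The labels do not say whether samples of a group came from separate animals or cultures, give no age, and name no mock treatment of the untreated cells, so the p-values cover the spread among these samples alone, which may be technical.

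Collagens are made of chains that wind around each other in threes into a rod, and the chain mix sets what the rod becomes. Types I, II, III, V and XI line up into the banded fibrils of connective tissue, type IV joins into the sheet of the basement membrane, and laminins, cross-shaped proteins of an alpha, a beta and a gamma chain, form a second sheet beside it. In the testis, fibrils and basement membranes surround the tubules and the vessels, and Leydig cells lie in the loose matrix between them. Bulk RNA cannot tell fewer cells of a type from less RNA per cell.

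Each sample was read on 1 one-colour Agilent array. Signals below are log2 intensities relative to the 75th percentile of their own array, so that 0 is that percentile, and levels are set side by side only within a probe. A change is the mean of the exosome arrays less that of the untreated arrays, in log2, and is followed by its standard error (SE, n = 3 arrays a group). Adjusted p-values come from a limma fit, adjusted by Benjamini and Hochberg's method across the 20433 tested probes. A chain is called higher or lower at an adjusted p under 0.05, and a gene is represented by its brightest tested probe. The scan times in the file headers put the 3 untreated arrays on 1 scan, exosome 1 and 2 on another and exosome 3 on another still, so scan and group cannot be told apart except through the split of the exosome arrays. Correlations over tested probes were 0.984 to 0.994 within a group and 0.969 to 0.983 between groups. Of the 7 Leydig cell markers, 5 were tested, and Lhcgr, the luteinizing hormone receptor, and Nr5a1, a steroidogenic transcription factor, were above background on no array.

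Of the 25 chains, 21 passed the filter on signal, 3 or more of 6 arrays well above background, and were tested. Among them 3 were higher and 9 were lower in exosome-treated cells, and 9 did not pass the test. Among the lower chains were the fibrillar chains Col2a1, Col3a1, Col5a1 and Col11a2, the laminin chain Lama5, and the collagens Col8a1, Col9a1 and Col9a2. Higher were Col1a1, a chain of type I collagen, Col4a4, a chain of the type IV sheet, and Col14a1, a collagen that sits on the surface of fibrils. The 12 chains past the test were 57.1% of the 21, where 43.8% of all 10979 tested genes passed it (14.6% higher and 29.2% lower). The median change of the chains was −0.31 beside −0.19 over all genes. For 13 of the 21 chains every array of 1 group lay above every array of the other, as it did for 62.0% of all genes. Col11a2, Col14a1 and Col9a2 passed the test whichever array was left out.

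The balance moved with the scaling and the counts with single arrays. The median change of all genes became 0.01 under quantile normalization and 0.04 when arrays were centred on their median. The chains then counted 2 higher and 5 lower under quantile normalization, where 20.2% of all genes were higher and 16.1% lower, and 3 and 5 under median centring (25.1% and 16.9%). In the authors' table (20.2% and 16.2%) and under cyclic loess, a normalization that takes out trends with signal (21.5% and 15.0%), they counted 2 and 5. Under normexp, a model-based background correction, they counted 2 and 10 (17.9% and 35.3%), and with scan as a random block 1 and 7 (10.8% and 24.7%). Without untreated 2 the counts were 1 and 2, where 1.22% of all genes were higher and 7.47% lower, and without untreated 3 they were 1 and 2 (1.92% and 9.08%). Leaving out exosome 1 gave 1 and 5 (3.43% and 12.8%), and leaving out exosome 3 gave 1 and 6 (6.99% and 21.7%). Calls that did not hold with scan as a random block included Col1a1, Col4a4 and Col9a1.

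**Figure D1:**
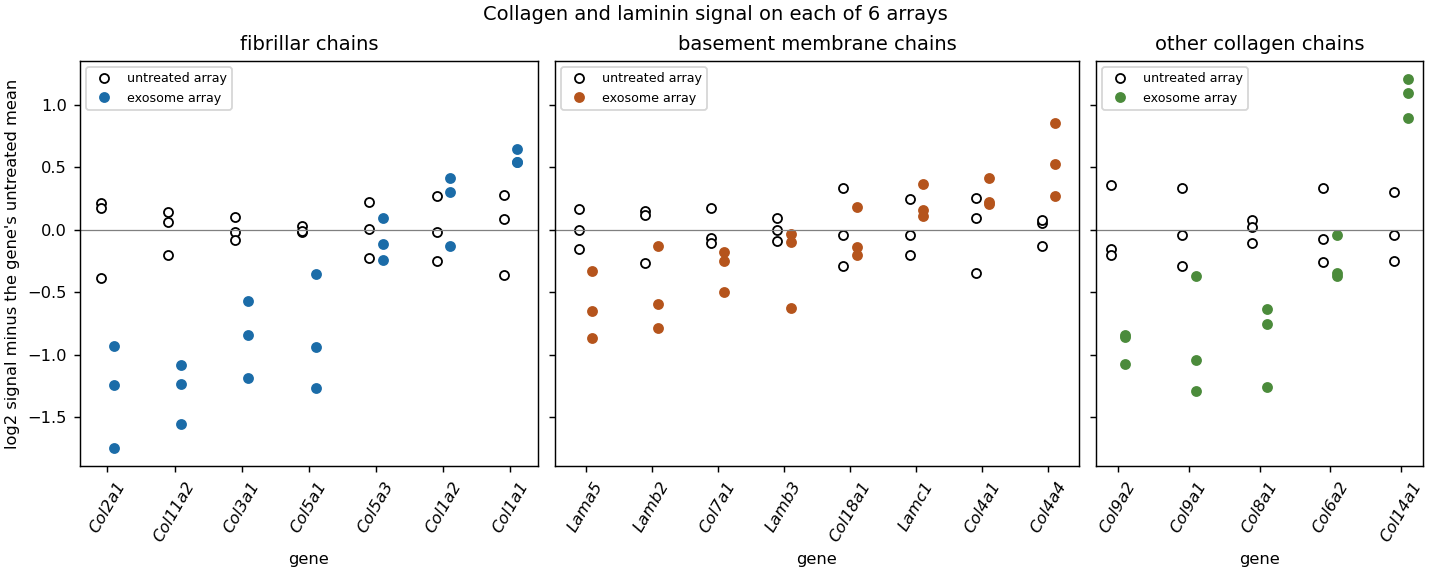
Each point is 1 array, plotted as log2 signal minus the mean of the 3 untreated arrays of that gene (y axis), for 20 of the 21 tested chains (x axis) in their 3 classes, with open points for untreated and filled points for exosome arrays. The exosome arrays of Col2a1, Col11a2, Col3a1 and Col5a1 lie below all untreated arrays, and those of Col1a1, Col4a4 and Col14a1 lie above them.

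The promoters of chains with different outcomes show what the reference holds in front of them. Col1a2 and Col4a1 did not pass the test, while Col5a1, Col11a2 and Col8a1 were lower. The windows are the 250 bases before the RefSeq start of each gene in assembly GRCr8, with Col1a2 at chr4:33518307-33518556 on the plus strand, Col4a1 at chr16:84885347-84885596 on the plus strand, Col5a1 at chr3:31606630-31606879 on the plus strand, Col11a2 at chr20:4817649-4817898 on the minus strand and Col8a1 at chr11:56246532-56246781 on the plus strand, and all are printed 5′ to 3′ in the direction of the gene. Capitals mark the motif CCAAT, bound by the factor NF-Y, the motif GGGCGG, bound by factors of the Sp family, and TATAAA, the TATA box, each on either strand, and neighbouring matches may overlap.
Col1a2: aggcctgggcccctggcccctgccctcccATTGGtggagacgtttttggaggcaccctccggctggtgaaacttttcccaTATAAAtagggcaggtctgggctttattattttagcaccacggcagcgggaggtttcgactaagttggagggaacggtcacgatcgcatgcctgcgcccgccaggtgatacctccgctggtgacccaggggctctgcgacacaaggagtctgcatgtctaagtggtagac
Col4a1: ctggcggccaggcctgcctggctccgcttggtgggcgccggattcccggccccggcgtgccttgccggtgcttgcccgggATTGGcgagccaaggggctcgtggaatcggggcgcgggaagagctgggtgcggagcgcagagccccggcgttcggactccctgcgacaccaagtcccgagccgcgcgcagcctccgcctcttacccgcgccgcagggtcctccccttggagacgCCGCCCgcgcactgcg
Col5a1: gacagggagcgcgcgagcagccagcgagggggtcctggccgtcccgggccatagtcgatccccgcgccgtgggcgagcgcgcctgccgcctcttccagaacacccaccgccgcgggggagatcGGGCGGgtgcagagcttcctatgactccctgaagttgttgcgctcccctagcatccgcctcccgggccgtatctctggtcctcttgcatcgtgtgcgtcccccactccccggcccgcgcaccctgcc
Col11a2: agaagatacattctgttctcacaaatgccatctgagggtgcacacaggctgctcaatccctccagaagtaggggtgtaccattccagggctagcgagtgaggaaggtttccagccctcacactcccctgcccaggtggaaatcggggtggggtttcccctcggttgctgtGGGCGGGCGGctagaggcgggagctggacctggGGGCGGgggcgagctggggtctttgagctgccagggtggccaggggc
Col8a1: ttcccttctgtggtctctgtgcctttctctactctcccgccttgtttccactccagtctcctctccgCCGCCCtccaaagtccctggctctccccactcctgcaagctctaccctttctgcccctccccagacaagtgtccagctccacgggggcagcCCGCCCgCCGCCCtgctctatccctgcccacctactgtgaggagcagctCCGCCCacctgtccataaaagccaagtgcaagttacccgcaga
Col1a2 held 1 CCAAT and 1 TATAAA, the latter beginning 170 bases before the RefSeq start, and Col4a1 held 1 CCAAT and 1 GGGCGG. Col5a1 held 1 GGGCGG, Col11a2 held 3 and Col8a1 held 4. A window was found for 14 of the 21 tested chains, and those without one include Col14a1, Col1a1, Col2a1, Col3a1, Col6a2 and Lamb2. CCAAT stood in 4 of the 14, GGGCGG in 9 and TATAAA in 1, and over 27457 promoters of that length the shares were 34.3%, 32.4% and 13.1%. Of the 6 lower chains with a window, 0 held CCAAT and 4 held GGGCGG. The other lower chains with a window, Col9a1 and Col9a2, held none of these motifs. GGGCGG also stood before Col18a1, Col4a1, Col5a3, Col7a1 and Lamc1, which were not called. Whether motifs and outcomes go together was not tested. Col4a1 faces Col4a2, the other chain of the common type IV molecule, across 76 bases on chromosome 16, and Col4a4 faces Col4a3 across 412 bases on chromosome 9, each pair read in opposite directions. The part of the Col4a1 window beyond those 76 bases thus lies inside Col4a2. Its CCAAT, which begins 170 bases before the Col4a1 start, is in that part. Col4a2 and Col4a3 are not among the 25 genes matched here. A match describes letters and no binding was measured.

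Of 7 tested fibrillar chains, 1 was higher and 4 were lower, beside 14.6% higher and 29.2% lower among all genes, and their median change was −0.85 beside −0.19. Under quantile normalization (all genes 20.2% and 16.1%), in the authors' table (20.2% and 16.2%) and under cyclic loess (21.5% and 15.0%), they counted 0 higher and 4 lower. Type III collagen, which Col3a1 encodes and which lies beside type I in soft and stretching tissues, was lower. Its signal was 3.82, 3.70 and 3.63 on untreated arrays and 2.88, 3.15 and 2.53 on exosome arrays. All 3 exosome arrays stood below the untreated ones. The change of Col3a1 was −0.86 ± 0.18 (SE), a 1.82-fold fall (adjusted p = 0.014), and the call held under each of the 6 scalings tried, while without untreated 2 and without untreated 3 it missed the test at −0.87 and −0.91. Col5a1 encodes a chain of type V collagen, which starts fibrils and limits their width. It gave −0.28, −0.23 and −0.27 on untreated arrays and −1.19, −0.61 and −1.52 on exosome arrays. The untreated arrays were close together and the exosome arrays were spread widely below them (SD 0.03 and 0.46). Col5a1 was lower by −0.85 ± 0.23 (adjusted p = 0.028), and it missed the test under median centring (−0.62) and in each fit without 1 array other than exosome 2, with values from −1.10 to −0.64 over the 6 fits.

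Col2a1 and Col11a2, chains of the fibrils of cartilage, had larger falls than the other named chains in this scaling, but not in each of the others, since under normexp Col3a1 stood at −0.81. Col2a1 gave −3.49, −2.89 and −2.93 on untreated arrays and −4.85, −4.35 and −4.04 on exosome arrays. The groups did not overlap. The change of Col2a1 was −1.31 ± 0.26 (adjusted p = 0.013), with −1.20 without untreated 2 and −1.22 without untreated 3, where it missed the test. It was smaller under normexp (−0.71), cyclic loess (−0.85) and quantile normalization (−0.94), and passed in each. Col11a2 gave −4.61, −4.26 and −4.35 on untreated arrays and −5.64, −5.49 and −5.96 on exosome arrays. Its probe was well above background on 3 untreated and 2 exosome arrays, and its other probe on none. The change of Col11a2 was −1.29 ± 0.17 (adjusted p = 0.0098), a 2.45-fold fall, and it passed in every scaling and in every fit without 1 array, though its value was −0.51 under normexp. With a filter at 6 arrays Col11a2 was not tested, and 1 fibrillar chain was higher and 3 were lower (all genes 18.9% and 30.6%). The median change of the fibrillar chains was then −0.47 beside −0.11 over all genes.

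Neither chain of type I collagen, the main fibril protein of most connective tissue, was called lower. The brighter probe of Col1a1 gave 3.14, 2.94 and 2.50 on untreated arrays and 3.40, 3.40 and 3.50 on exosome arrays. All exosome arrays lay above the untreated ones, which spread more (SD 0.33 and 0.06). The change was 0.58 ± 0.18 (adjusted p = 0.043), and with quantile normalization (0.54, adjusted p = 0.058), in the authors' table, under cyclic loess and in each fit without 1 array other than untreated 1 it was not called, with values from 0.39 to 0.71 over the 6 fits. The other Col1a1 probe went the opposite way, with 0.31, −0.08 and −0.09 on untreated and −0.44, −0.22 and −0.66 on exosome arrays (−0.49 ± 0.18, adjusted p = 0.061). The 2 probes of Col1a1 therefore give no common direction. Col1a2, the partner chain in the same molecule, gave 4.96, 4.68 and 4.44 on untreated and 4.99, 4.56 and 5.10 on exosome arrays. These overlapped (0.19 ± 0.20, adjusted p = 0.457). Col5a3, another type V chain, also overlapped (−0.09 ± 0.16), and its sign turned under quantile normalization (0.24).

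**Figure D2:**
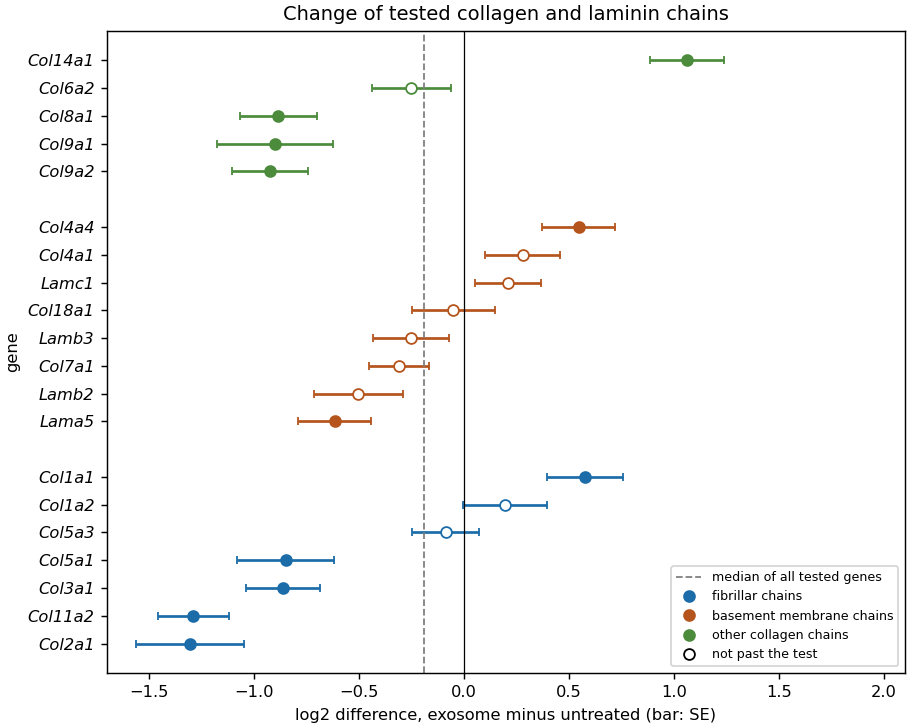
Log2 difference, exosome minus untreated (x axis), with its SE as a bar, for 20 of the 21 tested chains (y axis) coloured by class. Filled points passed the test and open points did not, the dashed line is the median of all tested genes (−0.19), and Col14a1 at 1.06 and Col2a1 at −1.31 mark the ends.

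Of 9 tested basement membrane chains, 1 was higher and 2 were lower, 33.3% beside 43.8% of all genes, and their median change was −0.25 beside −0.19. Under quantile normalization they counted 1 higher and 0 lower (all genes 20.2% and 16.1%), and under normexp 0 higher and 3 lower (17.9% and 35.3%). Col4a1, a chain of the type IV molecule found in nearly all basement membranes, gave 1.58, 1.43 and 0.99 on untreated and 1.54, 1.74 and 1.55 on exosome arrays with its brighter probe. The arrays overlapped (0.28 ± 0.18, adjusted p = 0.240). Its dimmer probe, above background on 3 untreated and 1 exosome array, was lower by −1.36 ± 0.39 (adjusted p = 0.033), so the probes of Col4a1 differ too. The 3 untreated arrays alone took this dimmer probe past the filter on signal, which favours a fall. Col4a4 encodes a chain of a type IV molecule of more limited distribution, best known from the kidney filter. It gave −3.80, −3.78 and −3.99 on untreated and −3.33, −3.59 and −3.00 on exosome arrays. The groups did not overlap, and the rise was 0.55 ± 0.17 (adjusted p = 0.044). It was larger under quantile normalization (0.93, adjusted p = 0.020) and missed the test under normexp (0.16) and in each fit without 1 array other than exosome 2 (0.40 to 0.69).

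No laminin gene was called higher. Lama5, the alpha chain of a widespread adult laminin, gave −1.94, −2.11 and −2.26 on untreated and −2.76, −2.43 and −2.97 on exosome arrays. The exosome arrays lay below (−0.62 ± 0.17, adjusted p = 0.031). Lama5 was not called after quantile normalization (−0.36), median centring (−0.38) and in each fit without 1 array other than exosome 2 (−0.76 to −0.49). Lamc1, the gamma chain of most laminins, was read by a probe spotted 10 times. It gave 1.57, 1.28 and 1.11 on untreated and 1.48, 1.69 and 1.43 on exosome arrays. These overlapped (0.21 ± 0.16, adjusted p = 0.305), and its dimmer probe gave −0.62 ± 0.30 (adjusted p = 0.135). Lamb2, a beta chain that pairs with Lama5 and Lamc1 in some basement membranes, gave −1.97, −2.00 and −2.38 on untreated and −2.71, −2.24 and −2.90 on exosome arrays, which overlapped (−0.50 ± 0.21, adjusted p = 0.095). Lamb3, the beta chain of epithelial laminin, had a change of −0.25 ± 0.18. Col7a1, which anchors basement membranes to the tissue below, had −0.31 ± 0.14 (adjusted p = 0.123), and Col18a1, the source of endostatin, had −0.05 ± 0.20 with a positive sign under quantile normalization (0.23).

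Of 5 tested other collagens, 1 was higher and 3 were lower, beside 14.6% and 29.2% of all genes. Col14a1 encodes a collagen that coats fibrils and joins them to their neighbours. Its brighter probe gave −1.31, −1.66 and −1.86 on untreated and −0.52, −0.71 and −0.41 on exosome arrays. All exosome arrays lay above the untreated ones. The rise was 1.06 ± 0.18 (adjusted p = 0.011), 2.09-fold, it passed in every scaling and in every fit without 1 array, and it was 1.20 under quantile normalization. Its dimmer probe, above background on 3 untreated and 1 exosome array, had −1.07 ± 0.54 (adjusted p = 0.149), and the mean of both probes was −0.00. The rise of Col14a1 is thus that of 1 of its 2 probes.

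Col9a1 and Col9a2 encode chains of type IX collagen, the coat of cartilage fibrils. Col9a1 gave −2.24, −2.00 and −1.62 on untreated and −2.99, −3.24 and −2.33 on exosome arrays, and was lower by −0.90 ± 0.27 (adjusted p = 0.039). Its other 2 probes were above background on no array. Col9a2 gave −4.38, −3.87 and −4.43 on untreated and −5.09, −5.07 and −5.31 on exosome arrays, and was lower by −0.93 ± 0.18 (adjusted p = 0.013). In both genes the groups did not overlap. Neither was called after quantile normalization (−0.64 and −0.46) or cyclic loess (−0.62 and −0.34), and Col9a1 was not called under median centring (−0.67) or without untreated 2 (−0.92), untreated 3 (−0.73), exosome 1 (−0.83) or exosome 2 (−0.71). Col8a1, a short collagen of vessel walls that forms open lattices, gave −1.53, −1.72 and −1.59 on untreated and −2.37, −2.25 and −2.88 on exosome arrays. It was lower by −0.88 ± 0.19 (adjusted p = 0.015) and passed in each of the 6 scalings, with −0.94 without untreated 2 and −0.87 without untreated 3, where it missed the test. Col6a2, a chain of the beaded filaments that link cells to fibrils, gave 3.46, 3.04 and 2.86 on untreated and 2.78, 3.08 and 2.75 on exosome arrays. These overlapped (−0.25 ± 0.19, adjusted p = 0.314).

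The 4 chains that were not tested were Col13a1, Col23a1, Lama1 and Lamc3. Col13a1 and Col23a1, collagens that span the cell membrane, and Lama1, a laminin alpha chain prominent in embryonic basement membranes, were above background on no array. Each of the 2 probes of Lamc3 was above background on 1 array, one of them untreated and the other exosome-treated.

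Changes over the whole array moved with signal, and the chains were set against that. The 20433 tested probes were cut into 10 equal bins of signal, and the median change was −0.72 in bin 1, the dimmest, −0.35 in bin 5 and −0.03 in bin 10. Against the median of their own bin, Col2a1, Col3a1, Col5a1 and Col11a2 stood at −0.87, −0.84, −0.74 and −0.71, and Col8a1 and Col9a1 at −0.62 and −0.55. Col9a2 and Lama5 stood closer to it, at −0.35 and −0.26. The rises of Col14a1, Col4a4 and Col1a1 stood at 1.33, 0.99 and 0.60. The part of signal in these changes was not tested beyond the normalizations above. The 5 chains past the test in all 6 scalings were Col11a2, Col2a1, Col3a1, Col8a1 and Col14a1. Among these scalings the authors' table lay close to quantile normalization (Col11a2 −0.77 and −0.78, Col3a1 −0.89 in both), so it adds little to that scaling.

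**Figure D3:**
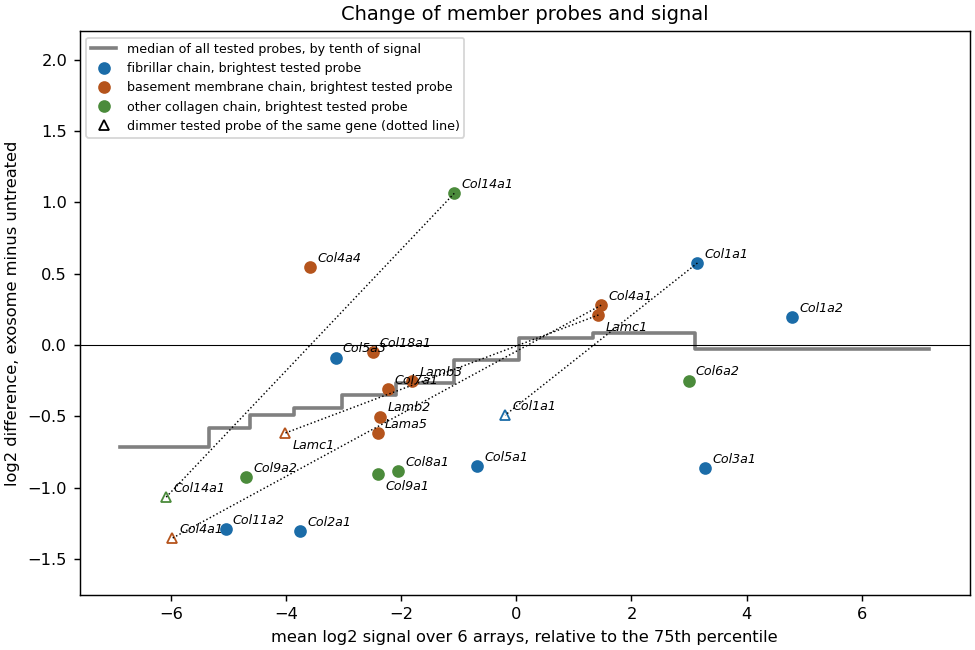
Log2 difference, exosome minus untreated (y axis), against mean log2 signal over the 6 arrays (x axis) for tested probes of 20 chains; the grey step line is the median of all tested probes in each of 10 bins of signal, rising from −0.72 to 0.08 and ending at −0.03. Dotted lines join the 2 tested probes of Col1a1, Col4a1, Col14a1 and Lamc1, whose brighter probe lies above 0 and whose dimmer probe lies below it.

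**Figure D4:**
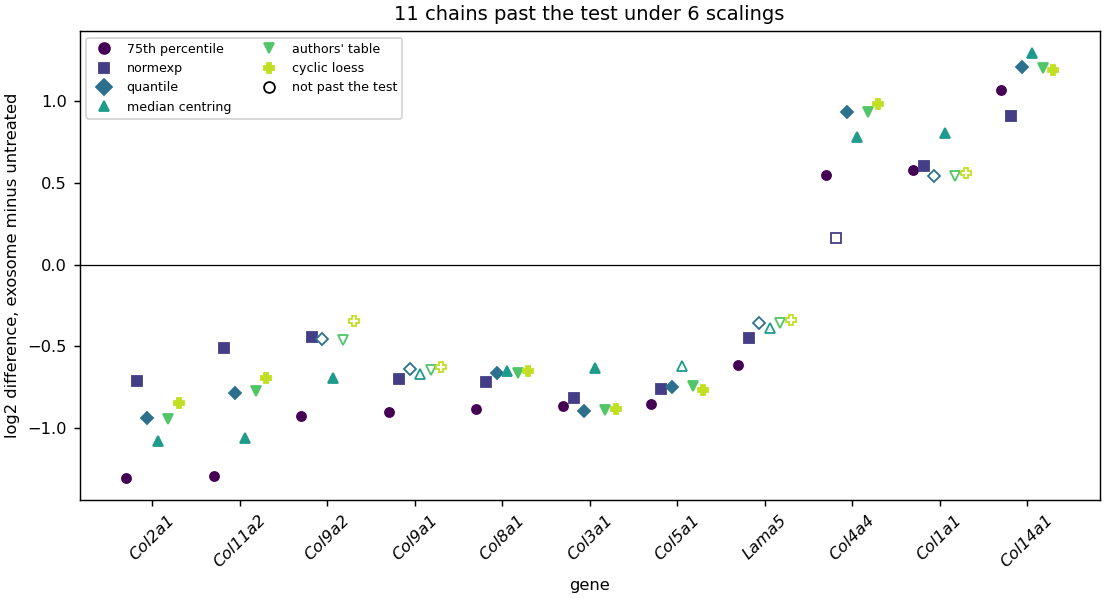
Log2 difference, exosome minus untreated (y axis), of 11 of the 12 chains past the test (x axis) under 6 scalings, with filled symbols where the adjusted p was under 0.05. Col3a1, Col8a1, Col2a1, Col11a2 and Col14a1 are filled throughout, while Col4a4 is open under normexp at 0.16.

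Of 24 tested genes of collagen synthesis and fibre assembly, 0 were higher and 13 were lower, 54.2% beside 29.2% lower among all genes, and their median change was −0.46. The groups did not overlap for 13 of the 24, where 62.0% of all genes did not. The direction was the same under every scaling. Under quantile normalization 8 were lower, all among those 13, and 0 higher (all genes 16.1% and 20.2%). Under median centring 6 were lower and 0 higher (16.9% and 25.1%). Without untreated 2 there were 2 lower, where 7.47% of all genes were, and without untreated 3 there were 3 (9.08%). Without exosome 1 there were 3 (12.8%) and without exosome 3 there were 6 (21.7%). P4ha3, a subunit of the prolyl hydroxylase that makes the collagen rod stable, gave 0.72, 0.81 and 0.91 on untreated and −0.68, −0.08 and −0.89 on exosome arrays, a fall of −1.36 ± 0.22 (adjusted p = 0.010). Plod3, which hydroxylates lysines of collagen and adds sugar to them, gave 0.91, 0.71 and 0.82 on untreated and −0.43, 0.04 and −0.30 on exosome arrays, a fall of −1.04 ± 0.16 (adjusted p = 0.010). In both genes every exosome array lay below every untreated one, and both passed in each scaling and in each fit without 1 array. P3h2, a prolyl hydroxylase active on basement membrane collagen, was lower by −0.74 ± 0.13, but by −0.27 under quantile normalization, where it missed the test, as it did without untreated 2 (−0.71).

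Of 8 basement membrane partners 0 were higher and 4 were lower, 50.0% beside 29.2% lower among all genes. The counts were 0 and 1 under quantile normalization (all genes 20.2% and 16.1%) and 1 and 2 under median centring (25.1% and 16.9%). They were 1 and 4 under normexp (17.9% and 35.3%) and 1 and 1 under cyclic loess (21.5% and 15.0%). Nid2, which ties laminin to type IV collagen, gave 1.30, 0.75 and 0.98 on untreated and −0.29, 0.37 and −0.59 on exosome arrays. It was lower by −1.18 ± 0.27 (adjusted p = 0.019) and passed in each scaling, but missed the test without untreated 2 (−1.31), without untreated 3 (−1.19) and without exosome 1 (−1.12). Smoc1, a calcium-binding matrix protein, was lower by −0.88 ± 0.14 and Ntn4, a netrin that binds laminin, by −0.75 ± 0.24, and neither was called after quantile normalization (−0.42 and −0.20). Ntn4 held in 1 of the 6 fits without 1 array. Of 6 collagen and laminin receptors 1 was higher and 2 were lower, beside 14.6% higher and 29.2% lower among all genes. The counts were 1 and 0 under quantile normalization (all genes 20.2% and 16.1%). They were 2 and 2 under median centring (25.1% and 16.9%) and under normexp (17.9% and 35.3%). Ddr2, a kinase receptor for fibrillar collagen, gave 0.47, 0.30 and 0.26 on untreated and 0.995, 0.86 and 1.16 on exosome arrays. It was higher by 0.66 ± 0.13 (adjusted p = 0.013). The call held in each scaling (0.59 to 0.89), though not without untreated 2 (0.64) or without untreated 3 (0.62). Itga10, a collagen-binding integrin chain, and Bcam, a receptor for the laminin chain of Lama5, were lower by −0.93 ± 0.15 and −1.09 ± 0.21, and were not called after quantile normalization (−0.48 and −0.52). Bcam was above background on 3 untreated and 1 exosome array, and without untreated 2 it missed the test at −1.10. Its 3 untreated arrays alone met the filter on signal, which favours a fall. With a filter at 6 arrays Bcam was not tested, and of 5 receptors 2 were higher and 1 was lower (all genes 18.9% and 30.6%).

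Several cell types of the testis make collagen and laminin, and their markers were read on the same arrays. Shares in brackets are of the list past the test, to be read beside 43.8% of all genes (14.6% higher and 29.2% lower). Where every call of a list was lower, the share to read beside it is 29.2%. Sums are of signal in multiples of the 75th percentile of the array, untreated first. Peritubular myoid cells form the muscle-like wall of the tubule, and of 7 of their markers 0 were higher and 3 were lower (42.9%). All 7 changes were negative, as were those of 6571 of all 10979 tested genes. The myoid sums were 44.8 to 48.2 and 28.8 to 35.7. Of 5 tested Leydig markers 0 were higher and 1 was lower (20%), namely Cyp11a1, which starts steroid synthesis (−0.86 ± 0.12, adjusted p = 0.0098). The Leydig sums, mostly of Hsd3b1 and Star, overlapped (75.6 to 84.8 and 74.4 to 88.1). Of 8 stromal markers, of which Dcn and Lum are also on the list of synthesis genes, 1 was higher and 2 were lower (37.5%), with sums of 54.5 to 58.6 and 51.5 to 53.6. Of 8 tested Sertoli markers 1, Wt1, was higher and 2 were lower (37.5%), 4 changes were positive and 4 negative, and Amh was above background on no array. The Sertoli sums were 36.6 to 43.8 and 28.9 to 34.3, and without Clu they overlapped (18.2 to 21.6 and 20.1 to 25.9). Of 5 tested endothelial markers 2 were higher and 3 were lower (100%), and Tek and Tie1 were above background on no array. The endothelial sums were higher on exosome arrays (1.004 to 1.13 and 1.27 to 1.56) and without Pecam1 lower (0.516 to 0.588 and 0.410 to 0.443). Of 9 macrophage markers 0 were higher and 4 were lower (44.4%), with sums of 19.7 to 20.7 and 8.02 to 18.7. The lowest of these came from Cd68, at −3.45 in log2 signal on exosome 3 and 3.15 to 3.47 on the other arrays, and without Cd68 the sums were 9.57 to 10.6 and 7.93 to 8.56. Clu, Pecam1 and Cd68 were singled out after their values were seen. The part of these cells in the changes of the chains was not tested.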

How the data were processed

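Cy3-labelled RNA of 6 samples was read on 1-colour arrays designed on rat build rn4. Per the file headers, the scanner files hold fluorescence intensities from Agilent Feature Extraction 11.0.1.1, with background and a spatial trend already removed on each array. The table the authors deposited holds log2 values whose columns share 1 distribution; its normalization is not given in the sources used here, and it served as an alternative. Probes were named through RefSeq accessions in a table of assembly GRCr8. Spots marked as outliers were left out, spots of 1 probe were averaged as log2, and the 75th percentile of each array was subtracted. Probes well above background on at least 3 of 6 arrays were fitted with limma 3.58.1 in R 4.3.3, as 1 model of the 2 groups. Tables and figures used Python 3.11.15, pandas 2.3.3, numpy 2.4.6 and matplotlib 3.10.9. Normexp (offset 50) used median spot signals, since the files hold no mean signals.

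On data simulated from 20416 probes for this comparison, with 50 changed probes per size, the fit found 8% of those changed 1.5-fold, 48% of those changed 2-fold, 74% of those changed 4-fold and 90% of those changed 8-fold. Far fewer probes were changed there than the 43.8% of genes called in the data. With fewer changed probes the adjustment asks for a smaller p, so these shares do not give the power of the comparison itself. Precision is limited by the number of arrays. Members and gene lists were chosen with earlier results of these data known. Any member may be named, though 1 is counted and not reported here; array values are given for members past the test without overlap (up to 8 a direction by p) and for a listed set of common chains, and partners by the 3 smallest p a direction and list. Array values of Col9a1 and Col6a2 fall outside that rule and were added after their values were seen; so were second probes. Alternatives were the scalings, filters, probe summary, outlier spots, each array left out, and the replicate number or scan as a block; cyclic loess and unadjusted p were added after seeing the data.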

Additional observations from a re-analysis of the deposited data

How the results depend on the processing

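Counts are given as higher and lower. Quantile normalization, the authors' table and cyclic loess each gave 5 member genes lower, 0 fibrillar chains higher, 0 basement membrane chains lower and 1 other collagen chain lower, with 12, 12 and 11 partner genes lower and, under cyclic loess, 3 higher. Median centring gave 5 member genes and 0 basement membrane chains lower, and 5 partner genes higher and 15 lower. Normexp gave 0 basement membrane chains and 5 partner genes higher. With no filter on dim probes 1 member gene was higher and 5 were lower (all genes 5.7% and 17%). In that fit 0 fibrillar and 0 basement membrane chains were higher and 0 basement membrane chains were lower. With a filter at 6 arrays 3 partner genes were higher (18.9% of all genes). The mean of a gene's probes gave 1 member gene, 0 fibrillar chains, 0 other collagen chains and 0 partner genes higher (11.7% of all genes). It turned the signs of Col14a1 (−0.0020), Col4a1 (−0.54) and Lamc1 (−0.20). The replicate number did not pair the samples (correlations of −0.09, −0.03 and −0.02 for samples of 1 number). The fit with the replicate block gave 1 member gene higher, 0 fibrillar and 0 basement membrane chains higher and 1 basement membrane chain lower. The same counts came with scan as a random block. Of all genes, 7% were higher and 21.9% lower with the replicate block, and 10.8% and 24.7% with scan. At unadjusted p under 0.05, 4 partner genes were higher, where 55.4% of all genes passed in either direction. The cause of these changes was not tested.

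Over the fits without 1 array, the counts ranged from 1 to 2 higher and 2 to 9 lower for member genes, 0 to 1 and 1 to 4 for fibrillar chains, 0 to 1 and 0 to 3 for basement membrane chains, 1 to 1 and 1 to 3 for other collagen chains, and 0 to 4 and 6 to 24 for partner genes. The shares of all genes ranged from 1.22% to 15.7% higher and 7.47% to 30.0% lower, beside 14.6% and 29.2% with all arrays. They were lowest without untreated 2, and without exosome 2 they were slightly above those with all arrays. Of 254 values of 15 chains, those past the test or on the list of common chains, under an alternative, 192 kept direction and side of the threshold, 57 lost the call, 2 gained it and 3 turned, all with the mean of probes. Among the chains outside these, Col18a1 and Col5a3 kept their sign in 2 of 6 scalings. Col11a2 and Col9a2 are dim, 6 arrays limit the precision, and no group spans more than 2 scans.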

Other observations

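Of 13 tested matrix proteins outside the collagen and laminin families, 0 were higher and 5 were lower, 38.5% beside 29.2% lower among all genes. Their median change was −0.04. The counts were 0 and 3 under quantile normalization (all genes 20.2% and 16.1%) and 2 and 5 under median centring (25.1% and 16.9%). They were 2 and 6 under normexp (17.9% and 35.3%) and 1 and 3 under cyclic loess (21.5% and 15.0%). Fbln5, which helps assemble elastic fibres, gave −1.89, −2.13 and −1.86 on the untreated and −3.08, −2.81 and −3.40 on the exosome arrays. It was lower by −1.14 ± 0.18 (adjusted p = 0.010, limma). The call held in each scaling (−1.14 to −0.79) and in each fit without 1 array (−1.28 to −0.99). Thbs1, a thrombospondin, and Vtn, vitronectin, were lower by −1.28 ± 0.26 and −0.86 ± 0.17, and missed the test under quantile normalization (−0.83 and −0.41). Without untreated 2 Thbs1 missed it at −1.05 and Vtn at −0.92, and Vtn also did without untreated 3 (−0.73).

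The opposite movement of a bright and a dim probe of 1 gene was not particular to Col1a1, Col4a1, Col14a1 and Lamc1. On the array 1493 genes had 2 tested probes, and in 601 of them (40.3%) the brighter probe had a positive and the dimmer a negative change, against 136 (9.11%) the other way round. Among the 547 genes whose probes lay at least 3 log2 units apart, as those of the 4 chains do, the shares were 58.3% and 3.84%.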
